A study of Mus musculus with 6 samples.

Results

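The integrated stress response genes described here are 10 transcripts chosen by name, namely *Eif2ak2*, *Eif2ak3*, *Eif2ak4*, *Atf4*, *Ddit3*, *Ppp1r15a*, *Trib3*, *Chac1*, *Asns* and *Psat1*. All 10 were found among the 34573 genes of the deposited count table, and 9 of them had enough reads to be among the 14004 genes tested. Their mRNA was measured by RNA sequencing of hematopoietic stem cells (HSCs) sorted from bone marrow, for which the labels give the gate lineage-negative CD48-CD150+ and the study defines HSCs as also Sca-1+ and c-Kit+. The 3 *Rpl22*-/- libraries came from young adult mice that lack the ribosomal protein Rpl22 in every tissue through a germline deletion, and the 3 *Rpl22*+/+ libraries came from young adult mice with an intact gene, both on a C57BL/6 background. The question put to these counts was whether the messages of this pathway differed between the genotypes.

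In the integrated stress response, 4 kinases that sense different stresses phosphorylate the same subunit of the initiation factor eIF2. PKR (*Eif2ak2*) responds to double-stranded RNA, PERK (*Eif2ak3*) to misfolded protein in the endoplasmic reticulum, GCN2 (*Eif2ak4*) to uncharged tRNA and stalled ribosomes, and HRI (*Eif2ak1*, which was not among the chosen genes) to heme shortage and mitochondrial stress. Phosphorylated eIF2 blocks its exchange factor eIF2B, so that most initiation slows while the message of the transcription factor ATF4 is translated more. ATF4 then raises genes of amino acid supply (*Asns*, *Psat1*), the factor CHOP (*Ddit3*), the pseudokinase *Trib3* and the glutathione-degrading enzyme *Chac1*. GADD34 (*Ppp1r15a*) closes the loop by bringing protein phosphatase 1 to eIF2. In HSCs the pathway is known for its part in how stem cells respond to amino acid shortage and protein misfolding. Much of its control lies in phosphorylation and translation, which counts of mRNA do not measure.

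Of the 9 genes tested, 2 rose in *Rpl22*-/- HSCs, namely *Ppp1r15a*, 1.47-fold, and *Atf4*, 1.3-fold, and none fell. Across all genes tested, 5.57% passed an adjusted p of 0.05 (edgeR quasi-likelihood fit, Benjamini-Hochberg over all genes), 3.28% being higher and 2.29% lower in *Rpl22*-/- HSCs. The median log2 fold change of the 9 was 0.03, beside −0.01 over all genes tested. In 4 of the 9, every library of one genotype lay above every library of the other, which was so for 26.9% of all genes tested. Levels are given as CPM, the reads of a gene scaled to a common library size with the TMM method. The call of *Ppp1r15a* was kept in all 17 other ways of processing the counts and that of *Atf4* in 9 of them.

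**Figure D1:**
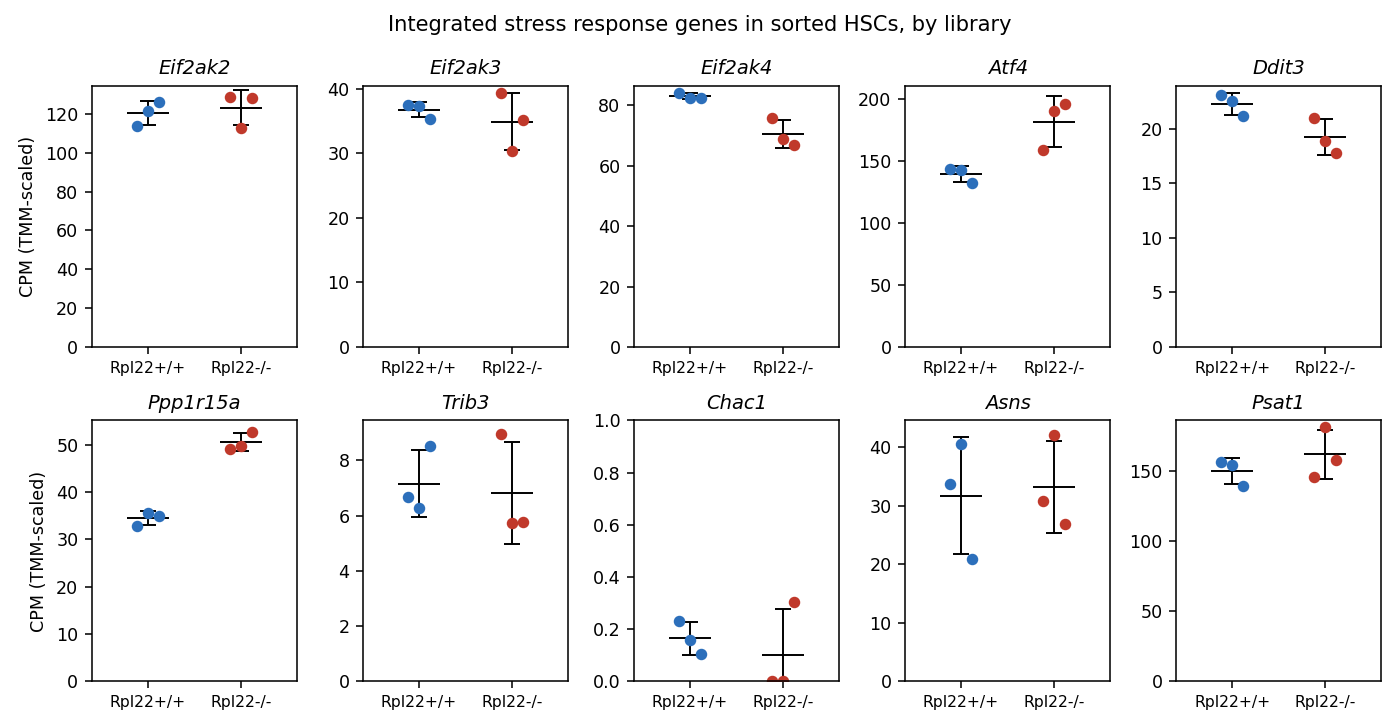
Level of each of the 10 genes in CPM on the y axis, from 0, with the *Rpl22*+/+ libraries in blue and the *Rpl22*-/- libraries in red, and bars for the mean ± SD of 3 libraries. *Ppp1r15a* lay between 49.1 and 52.7 CPM in *Rpl22*-/- HSCs and between 32.8 and 35.6 CPM in *Rpl22*+/+ HSCs, and *Chac1* stayed under 1 CPM in every library.

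The 6 libraries held 9321123 to 13385850 reads on genes. *Rpl22* fell to 40.1 ± 4.59 CPM (SD, n = 3) in the libraries labelled *Rpl22*-/- from 538 ± 20.7 CPM (SD, n = 3). All 12 HSC markers were tested, with a summed level of 2310 to 2545 CPM in *Rpl22*-/- and 2512 to 2587 CPM in *Rpl22*+/+ libraries, and 1 of them, *Fgd5*, was called, lower. The 8 megakaryocyte markers summed to 1079 to 1323 CPM against 759 to 987 CPM, and 6 of them were called, all higher in *Rpl22*-/-. Among all genes tested, 5.57% were called, 3.28% higher and 2.29% lower. The 8 neutrophil markers summed to 139 CPM in *Rpl22*-/- replicate 2, to 33.0 and 41.9 CPM in replicates 1 and 3, and to 9.55 to 29.6 CPM in *Rpl22*+/+ libraries. Of 7 tested, 1 was called, higher in *Rpl22*-/-, and 6 had a higher fitted level, with a median log2 fold change of 1.63. An unadjusted p under 0.05 was reached by 5 of the 7, beside 22.3% of all genes tested. Of the B, T, erythroid and macrophage lists, 7 genes were tested and 0 were called. *Ms4a1* and *Cd3e* had 0 reads in every library, but other genes of these lists were read. The highest counts in a library were 354 for *Cd79b*, 150 for *Lck*, 79 for *Cd4*, 301 for *Epor* and 163 for *Csf1r*. *Rpl22*-/- replicate 1 stood apart in that leaving it out raised the number of genes called from 780 to 1720. Nothing in the sources used here says that the libraries came from separate animals, so p-values measure only the spread between these samples. In bulk RNA, fewer cells that make a transcript and less of it in each cell cannot be told apart.

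The promoter sequences of *Ppp1r15a* and *Atf4*, the 2 genes that rose, are shown first, each as the 250 bases before the transcription start in RefSeq (GRCm38.p6), 5′ to 3′ on the gene's own strand. *Ppp1r15a* lies at chr7:45526269-45526518 on the reverse strand and *Atf4* at chr15:80254934-80255183 on the forward strand. Capitals mark the matches to the cyclic AMP response element TGACGTCA and to the interferon response pattern GAAANNGAA.
Ppp1r15a: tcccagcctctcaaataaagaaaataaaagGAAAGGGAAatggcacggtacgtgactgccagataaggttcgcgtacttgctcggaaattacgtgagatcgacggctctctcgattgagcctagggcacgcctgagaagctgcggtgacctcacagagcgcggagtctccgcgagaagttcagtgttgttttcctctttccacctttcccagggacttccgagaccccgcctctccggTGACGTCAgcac
Atf4: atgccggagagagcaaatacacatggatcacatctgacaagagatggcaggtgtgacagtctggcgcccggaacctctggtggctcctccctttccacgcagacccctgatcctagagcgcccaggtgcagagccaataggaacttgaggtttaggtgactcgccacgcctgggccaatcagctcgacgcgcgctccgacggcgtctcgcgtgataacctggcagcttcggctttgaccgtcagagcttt

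Each of the 10 genes had a promoter window in RefSeq of 250 bases before and 50 after a start, and *Psat1* and *Eif2ak4* had 2, which made 12 windows. Both strands were searched for 4 patterns, and shares of all 32851 windows of that length are given for each. TGACGTCA was in 1.79% of all windows and, among the 10 genes, in that of *Ppp1r15a*, 12 bases before the start. GAAANNGAA was in 8.56% of all windows and in those of *Ppp1r15a* and *Eif2ak2*, with a pair of overlapping matches in the latter. The composite site of C/EBP and ATF factors, TGATGCAA, was in 0.895% of windows and in that of *Chac1*, and the looser TGATGNAA, which includes it, was in 3.97% and in those of *Chac1*, *Asns* and *Trib3*. None of the 4 patterns was in the windows of *Atf4*, *Ddit3*, *Psat1*, *Eif2ak3* or *Eif2ak4*, which says only that these letters were not there. The stretches around the matches in the other 4 genes are given in the same build and orientation, with the match in capitals. They lie at chr2:119351033-119351072 (*Chac1*, forward), chr6:7693218-7693257 (*Asns*, reverse), chr2:152344024-152344053 (*Trib3*, reverse) and chr17:78882532-78882561 (*Eif2ak2*, reverse).
Chac1: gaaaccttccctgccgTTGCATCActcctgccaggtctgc
Asns: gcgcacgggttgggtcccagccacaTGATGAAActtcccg
Trib3: ctcaggtTTACATCAgccgggcggggatcc
Eif2ak2: ccgccggGAAAACGAAACAGAAgagaaccg

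The 3 genes that carry a C/EBP-ATF match were among those that did not pass the test or had too few reads for it, and of the 2 that carry the interferon pattern, 1 passed. *Atf4* passed and carried none of the patterns. Among all genes tested, 5.57% passed, and a link between matches and calls was not tested. A match is a run of letters and was not shown to be bound in these cells.

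Among the kinases that start the response, none passed the test. *Eif2ak4* (ENSMUSG00000005102, chromosome 2, 118388618 to 118475234, forward strand of GRCm38), the sensor of amino acid shortage, had 75.8, 68.8 and 66.9 CPM in *Rpl22*-/- replicates 1, 2 and 3, and 84.3, 82.4 and 82.5 CPM in *Rpl22*+/+ replicates 1, 2 and 3. All 3 *Rpl22*-/- libraries were lower than every *Rpl22*+/+ library. The means were 70.5 ± 4.65 and 83.0 ± 1.06 CPM (SD, n = 3 each), a log2 fold change of −0.24 (standard error 0.0851, 95% interval −0.42 to −0.06). The adjusted p was 0.111 in edgeR, and of 17 alternatives it passed only without *Rpl22*-/- replicate 1 (−0.29, adjusted p = 0.0451).

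*Eif2ak2* (ENSMUSG00000024079, chromosome 17, 78852564 to 78882573, reverse strand), the sensor of double-stranded RNA and itself an interferon-stimulated gene, had 129, 113 and 128 CPM in *Rpl22*-/- and 114, 122 and 126 CPM in *Rpl22*+/+ libraries. The groups overlapped. Its log2 fold change of 0.03 had a 95% interval of −0.15 to 0.22 (adjusted p = 0.864), and its sign turned with library size alone (−0.01) and without *Rpl22*+/+ replicate 1 (−0.01). *n-R5s29* and *Gm26637* overlap *Eif2ak2* on the opposite strand, and *Vmn2r53* is 85.5% identical to it over 1196 bases. Some of its reads may belong to these genes.

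*Eif2ak3* (ENSMUSG00000031668, chromosome 6, 70844515 to 70905245, forward strand), the kinase of the endoplasmic reticulum, had 39.3, 30.4 and 35.1 CPM in *Rpl22*-/- libraries and 37.4, 37.4 and 35.4 CPM in *Rpl22*+/+ libraries. The highest and the lowest of the 6 libraries were both *Rpl22*-/-. The log2 fold change was −0.07 (95% interval −0.32 to 0.17, adjusted p = 0.759), and it was 0.02 without *Rpl22*-/- replicate 2. Since *Gm23346* and *Gm43292* overlap this gene, some of its reads may belong to them.

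*Eif2ak1*, the heme-regulated kinase, is set beside these because it completes the family. It had 83.3, 87.5 and 82.0 CPM in *Rpl22*-/- and 73.3, 76.3 and 69.3 CPM in *Rpl22*+/+ libraries, with no overlap and in the opposite direction to *Eif2ak4*. Its difference on the log2 scale was 0.21, with a standard error of 0.0838 and an adjusted p of 0.156, and it passed in 0 of 17 alternatives. *Aimp2* and *Ankrd61* overlap it. Within each library, free of any scaling, there were 1.1, 1.27 and 1.23 reads of *Eif2ak1* per read of *Eif2ak4* in *Rpl22*-/- HSCs and 0.87, 0.926 and 0.84 in *Rpl22*+/+ HSCs. This ratio was chosen after its values were seen and is given without a test.

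With the proteins that activate or restrain the kinases, 9 genes were tested, of which 4 had a higher and 5 a lower fitted level, and 0 passed in edgeR, DESeq2 or limma-voom. Their median log2 fold change was −0.04, and 2, *Eif2ak4* and *Eif2ak1*, had an unadjusted p under 0.05, as did 22.3% of all genes tested. *Dnajc3*, the inhibitor of PERK and PKR known as p58IPK, came next with a log2 fold change of −0.17 (adjusted p = 0.361).

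*Atf4* (ENSMUSG00000042406, chromosome 15, 80255184 to 80257541, forward strand), the transcription factor at the centre of the response, had 2031, 2288 and 2579 reads in *Rpl22*-/- and 1862, 1779 and 1266 reads in *Rpl22*+/+ libraries. On the scale of CPM these were 158, 190 and 196 against 143, 143 and 132. Every *Rpl22*-/- library was above every *Rpl22*+/+ library, and replicate 1 was the lowest of the *Rpl22*-/- libraries. *Atf4* rose from 139 ± 6.46 to 182 ± 20.3 CPM (SD, n = 3 each), a log2 fold change of 0.38 (standard error 0.0935, 95% interval 0.18 to 0.58, adjusted p = 0.0282 in edgeR). The log2 fold change lay between 0.27 and 0.48 in the 17 alternatives, always above 0. The call was lost without *Rpl22*-/- replicate 2 (adjusted p = 0.0731) or 3 (0.125), without *Rpl22*+/+ replicate 1 (0.0974), 2 (0.0835) or 3 (0.114), and after removal of the trend on gene length (0.33, adjusted p = 0.0522) or on GC content (0.31, adjusted p = 0.0823). With a replicate block added and both trends removed, the call was also lost and the log2 fold change was smallest (0.27, adjusted p = 0.124). Without *Rpl22*-/- replicate 1 it was 0.48 (adjusted p = 0.00222).

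*Ddit3* (ENSMUSG00000025408, chromosome 10, 127290774 to 127296288, forward strand), which encodes the pro-apoptotic factor CHOP and is a classical target of ATF4, had 20.97, 18.9 and 17.8 CPM in *Rpl22*-/- and 23.0, 22.6 and 21.1 CPM in *Rpl22*+/+ libraries. Here the *Rpl22*-/- libraries were all below the *Rpl22*+/+ libraries, though the nearest pair almost touched. The means were 19.2 ± 1.62 and 22.2 ± 1.0 CPM (SD, n = 3 each), and the log2 fold change was −0.21 (standard error 0.127, 95% interval −0.48 to 0.06, adjusted p = 0.345). It kept its sign and did not pass in any of the 17 alternatives, with values of −0.29 to −0.16. The number of *Atf4* reads per *Ddit3* read, a ratio also chosen after its values were seen, was 7.55, 10.1 and 11.0 in *Rpl22*-/- libraries and 6.21, 6.33 and 6.24 in *Rpl22*+/+ libraries. The ratio was thus nearly constant among *Rpl22*+/+ HSCs and higher in each *Rpl22*-/- library.

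*Ppp1r15a* (ENSMUSG00000040435, chromosome 7, 45522916 to 45526268, reverse strand), the stress-inducible subunit that directs protein phosphatase 1 to eIF2, had 630, 597 and 694 reads in *Rpl22*-/- and 427, 444 and 335 reads in *Rpl22*+/+ libraries. In CPM these were 49.1, 49.7 and 52.7 against 32.8, 35.6 and 34.9. The groups lay far apart relative to their spread, with the lowest *Rpl22*-/- library well above the highest *Rpl22*+/+ library. *Ppp1r15a* rose from 34.4 ± 1.46 to 50.5 ± 1.94 CPM (SD, n = 3 each), a log2 fold change of 0.55 (standard error 0.0975, 95% interval 0.35 to 0.76, adjusted p = 0.00639 in edgeR). Over the 17 alternatives it lay between 0.47 and 0.58, and its highest adjusted p was 0.0484, without *Rpl22*-/- replicate 3. *Tulp2* overlaps it on the opposite strand, and the strand setting of the counting is not given in the sources used here, so reads of the overlap cannot be told apart. *Tulp2* had 20 to 59 reads per library.

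*Ppp1r15b*, the constitutive partner that does the same work in unstressed cells, gives a comparison within the family. It had 162, 165 and 151 CPM in *Rpl22*-/- and 168, 165 and 161 CPM in *Rpl22*+/+ libraries, with a log2 fold change of −0.04 (adjusted p = 0.795). For each read of *Ppp1r15b* there were 0.302, 0.3 and 0.35 reads of *Ppp1r15a* in *Rpl22*-/- HSCs and 0.195, 0.217 and 0.217 in *Rpl22*+/+ HSCs. The inducible subunit thus made up more of the pair in each *Rpl22*-/- library, in a ratio chosen after its values were seen.

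*Trib3* (ENSMUSG00000032715, chromosome 2, 152337422 to 152344032, reverse strand), a pseudokinase that binds and restrains ATF4, had 8.96, 5.74 and 5.77 CPM in *Rpl22*-/- and 6.68, 6.26 and 8.53 CPM in *Rpl22*+/+ libraries. The groups overlapped, with the highest and the lowest library again both *Rpl22*-/-. Its log2 fold change was −0.06 with a wide 95% interval of −0.54 to 0.42 (adjusted p = 0.909), and the sign turned when *Rpl22*-/- replicate 2 (0.05), *Rpl22*-/- replicate 3 (0.05) or *Rpl22*+/+ replicate 3 (0.08) was left out. It had 69 to 115 reads per library.

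**Figure D2:**
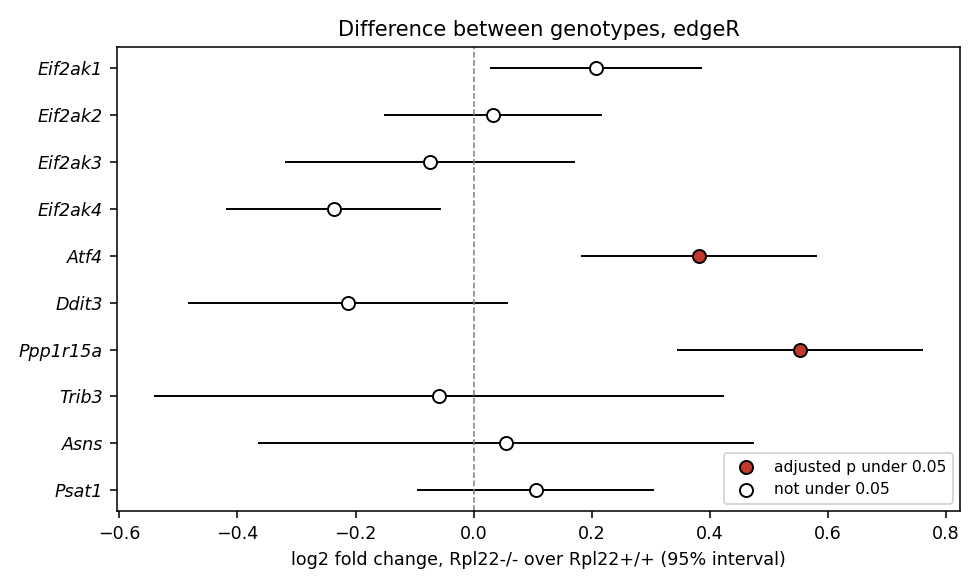
The log2 fold change of *Rpl22*-/- over *Rpl22*+/+ HSCs on the x axis for the 9 genes tested and *Eif2ak1*, with bars for the 95% interval of the edgeR fit and filled points for an adjusted p under 0.05. *Ppp1r15a* (0.55) and *Atf4* (0.38) are filled, and the intervals of *Trib3* and *Asns* are the widest.

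*Asns* (ENSMUSG00000029752, chromosome 6, 7675169 to 7693254, reverse strand), asparagine synthetase and a standard readout of ATF4, had 30.8, 42.0 and 26.9 CPM in *Rpl22*-/- and 33.8, 40.5 and 20.9 CPM in *Rpl22*+/+ libraries. The libraries of each genotype spread over much the same range. The means were 33.2 ± 7.86 and 31.8 ± 9.97 CPM (SD, n = 3 each), with a log2 fold change of 0.05 (standard error 0.197, 95% interval −0.36 to 0.47, adjusted p = 0.904). It was −0.15 without *Rpl22*-/- replicate 2 and −0.16 without *Rpl22*+/+ replicate 3.

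*Psat1* (ENSMUSG00000024640, chromosome 19, 15904678 to 15947337, reverse strand), a transaminase of serine synthesis, had 146, 181 and 158 CPM in *Rpl22*-/- and 156, 154 and 139 CPM in *Rpl22*+/+ libraries. The groups overlapped. The means were 162 ± 17.7 and 150.0 ± 9.31 CPM (SD, n = 3 each), with a log2 fold change of 0.11 (95% interval −0.09 to 0.30, adjusted p = 0.548). *Gm12611* is 91.0% identical to it over 1056 bases and had 0 reads in every library, so how reads were divided between this pair is uncertain, and *Gm3329* overlaps it on the opposite strand. Per read of *Psat1* there were 1.09, 1.05 and 1.24 reads of *Atf4* in *Rpl22*-/- and 0.915, 0.926 and 0.945 in *Rpl22*+/+ libraries, again without overlap and chosen after the values were seen. The ratios of *Atf4* to *Asns* and to *Trib3* overlapped between the genotypes.

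*Chac1* (ENSMUSG00000027313, chromosome 2, 119351229 to 119354381, forward strand) had 0, 0 and 4 reads in *Rpl22*-/- and 3, 2 and 1 reads in *Rpl22*+/+ libraries. It was too low for a test, and no fold is given. Per kilobase of exon, it was the lowest of the 10 genes, and *Atf4* was the highest, at 77.0 CPM per kilobase in *Rpl22*-/- and 59.0 in *Rpl22*+/+ HSCs. *Psat1* followed with 38.0 and 35.3, then *Eif2ak2* with 24.1 and 23.6. *Ppp1r15a* was next in *Rpl22*-/- HSCs at 17.2 CPM per kilobase, above *Asns* (12.2) and *Ddit3* (11.2), whereas in *Rpl22*+/+ HSCs *Ddit3* (13.0) came before *Ppp1r15a* (11.7) and *Asns* (11.6). *Eif2ak4* (9.45 and 11.1), *Eif2ak3* (5.79 and 6.10) and *Trib3* (3.21 and 3.37) were lower.

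The rest of the pathway was read from lists given by function. In the 7 lists on eIF2 and ATF4, 63 genes beyond the 10 were tested and 5 were called, 2 higher and 3 lower, a share of 7.94% beside the 5.57% of all genes. They were *Eif4ebp1* and *Atf5*, which rose, and *Vldlr*, *Ppp1cb* and *Ero1l*, which fell. For eIF2, eIF2B and the eIF2 phosphatase, 11 of 13 genes had a higher fitted level (median 0.20 on the log2 scale) and 2 passed, *Ppp1r15a* and *Ppp1cb*. Among all genes tested, 6826 of 14004 had a higher fitted level. An unadjusted p under 0.05 was reached by 6 of the 13, beside 22.3% of all genes tested. *Ppp1cb*, a catalytic subunit of protein phosphatase 1, fell from 234 ± 10.3 to 182 ± 4.33 CPM (SD, n = 3 each), with 187, 180 and 180 CPM in *Rpl22*-/- and 246, 229 and 228 CPM in *Rpl22*+/+ libraries. The groups did not overlap, and its log2 fold change was −0.36 (adjusted p = 0.0197), but it was −0.24 (adjusted p = 0.111) with the trend on GC content removed and −0.32 (0.122) without *Rpl22*+/+ replicate 1. It passed in 10 of 17 alternatives. Neither the sister subunit *Ppp1ca* (0.32, adjusted p = 0.0704) nor *Eif2s2*, the beta subunit of eIF2 (0.32, adjusted p = 0.0971), passed in edgeR. DESeq2 called *Ppp1ca*, which passed in 3 of 17 alternatives, and *Eif2s2* passed in 4.

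*Atf5*, a factor related to ATF4 and likewise controlled through translation, was the other gene called among 7 ATF4 partners and downstream factors. It had 15.3, 27.2 and 27.3 CPM in *Rpl22*-/- and 15.7, 14.0 and 12.7 CPM in *Rpl22*+/+ libraries, so that *Rpl22*-/- replicate 1 lay within the *Rpl22*+/+ range and the other 2 well above it. Its log2 fold change of 0.72 (adjusted p = 0.0417) passed in 8 of 17 alternatives. It did not pass in limma-voom (adjusted p = 0.077), without any 1 library other than *Rpl22*-/- replicate 1 (0.0878 to 0.182), or with the trends on length (0.0662) or GC content (0.103) removed. With a replicate block added and both trends removed it did not pass either (adjusted p = 0.142). *Rpl22*-/- replicate 1 was the lowest *Rpl22*-/- library for *Atf4* as well.

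Genes of amino acid supply, the best known targets of ATF4, did not pass in edgeR. There 0 of 11 genes of amino acid and folate synthesis, 0 of 9 amino acid transporters and 0 of 12 aminoacyl-tRNA synthetases were called, and at an unadjusted p under 0.05 there were 2, 3 and 2, a share close to the 22.3% of all genes. Fitted levels were higher for 8, 5 and 9 of them, beside 6826 of all 14004 genes tested. The medians of the 3 lists on the log2 scale were 0.11, 0.10 and 0.08. Ranked by p, the first gene in the 3 lists was respectively *Aldh18a1*, which makes a proline precursor (0.34, adjusted p = 0.0535), *Slc7a1*, a carrier of arginine and lysine (0.32, adjusted p = 0.0672), and *Sars*, seryl-tRNA synthetase (0.40, adjusted p = 0.0581). DESeq2 called exactly these 3, 1 in each list, and limma-voom called 0. *Shmt2* (0.27), *Pycr1* (0.51), *Slc3a2* (0.23), *Slc7a5* (0.26), *Tars* (0.26) and *Aars* (0.21) followed, with adjusted p-values between 0.0998 and 0.325.

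Of 11 other targets of ATF4 and CHOP, 1 rose and 2 fell. *Eif4ebp1*, the inhibitor of cap-dependent translation 4E-BP1 and a target of ATF4, had 54.9, 62.0 and 46.9 CPM in *Rpl22*-/- and 37.8, 36.1 and 34.2 CPM in *Rpl22*+/+ libraries. The groups did not overlap. *Eif4ebp1* rose by 0.60 on the log2 scale, with a standard error of 0.112 and an adjusted p of 0.00898, and with *Ppp1r15a* it was the only gene of the 7 eIF2 and ATF4 lists to pass in all 17 alternatives (highest adjusted p 0.0424). *Vldlr*, a lipoprotein receptor, fell from 44.8 ± 2.08 to 30.9 ± 5.41 CPM (log2 fold change −0.54, adjusted p = 0.0225) and *Ero1l*, an oxidase of the endoplasmic reticulum, from 69.6 ± 6.25 to 53.8 ± 6.30 CPM (−0.37, adjusted p = 0.0466; SD, n = 3 each). They passed in 10 and 8 of 17 alternatives. With the trend on gene length removed they had adjusted p-values of 0.0528 and 0.0693. The median over the 11 genes was 0.03, with 6 at a higher and 5 at a lower fitted level. An unadjusted p under 0.05 was reached by 6 of the 11, beside 22.3% of all genes tested. The genotypes did not overlap in 5 of the 11, beside 26.9% of all genes tested.

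**Figure D3:**
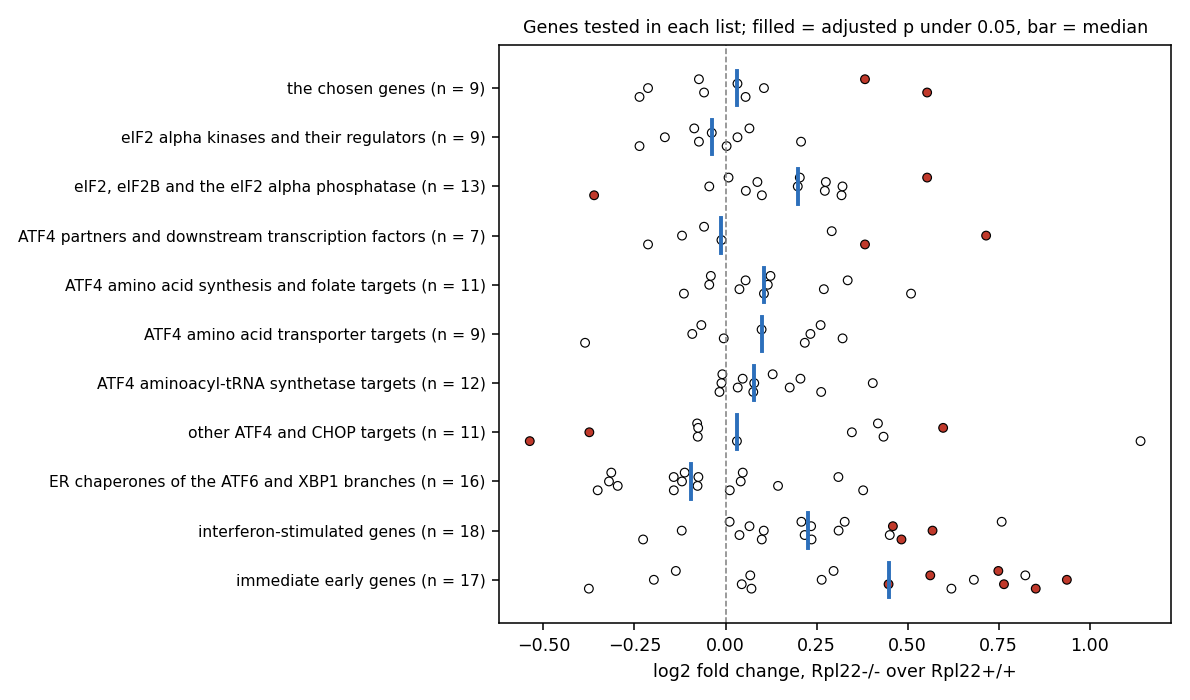
The log2 fold change of *Rpl22*-/- over *Rpl22*+/+ HSCs on the x axis for each gene tested, 1 row of points per list, with a blue bar for the list's median and filled points for an adjusted p under 0.05. The 3 lists of amino acid supply have no filled point, and the medians of the immediate early and interferon lists (0.45 and 0.23) are the highest.

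Other branches of stress signalling stood beside these genes as follows. In the ATF6 and XBP1 branches of the unfolded protein response, 6 of 16 genes had a higher and 10 a lower fitted level, and the median was −0.09 on the log2 scale. There 0 passed in edgeR and in limma-voom and 1 (*Calr*) in DESeq2. An unadjusted p under 0.05 was reached by 5 of the 16, beside 22.3% of all genes tested. For *Calr*, a chaperone of glycoproteins, the log2 fold change was 0.38 (adjusted p = 0.0879), while *Edem1*, which hands misfolded proteins on for degradation, had −0.30 (0.0896) and *Xbp1*, a transcription factor of this response, −0.35 (0.0901).

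Interferon-stimulated genes, to which the kinase gene *Eif2ak2* belongs, were higher in 16 of 18 by fitted level, with a median of 0.23, and 3 rose. Among all genes tested, 6826 of 14004 had a higher fitted level and 3.28% rose. An unadjusted p under 0.05 was reached by 6 of the 18, beside 22.3% of all genes tested. *Bst2*, which tethers viruses to the membrane, had a log2 fold change of 0.46, with an adjusted p of 0.0115, and passed in 14 of 17 alternatives. *Irf7*, a transcription factor of the antiviral response, had 0.57 (adjusted p = 0.0341) and passed in 9. *Eif2ak2* itself, at 0.03, lay below the list's median.

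Immediate early genes, which are switched on within minutes of many stimuli including handling of cells, are set beside *Ppp1r15a* because that gene is also induced in this manner. Of 17 tested, 6 rose, namely *Ier5* (0.85), *Junb* (0.76), *Fos* (0.94), *Myc* (0.56), *Dusp1* (0.75) and *Jund* (0.45), with adjusted p-values of 0.00764 to 0.0419, and the median was 0.45. Among all genes tested, 3.28% rose. An unadjusted p under 0.05 was reached by 9 of the 17, beside 22.3% of all genes tested. *Junb* passed in 17 alternatives, *Ier5* in 16, *Fos* in 14, *Myc* in 12, *Dusp1* in 9 and *Jund* in 8. Without *Rpl22*-/- replicate 3 *Dusp1* was 0.48 (adjusted p = 0.187), limma-voom did not call it, and *Jund* was 0.24 (adjusted p = 0.32) with the block and both trends removed. Summed over the 23 listed genes, their level was 803, 937 and 1043 CPM in *Rpl22*-/- and 725, 682 and 555 CPM in *Rpl22*+/+ libraries. The summed levels of immediate early, megakaryocyte and neutrophil genes were higher in every *Rpl22*-/- than in every *Rpl22*+/+ library, without a test of these sums. The neutrophil sums came close, at 33.0 CPM in *Rpl22*-/- replicate 1 and 29.6 CPM in *Rpl22*+/+ replicate 3. The part of these genes in the changes of *Ppp1r15a*, *Atf4* and *Atf5* was not tested. Without *Rpl22*-/- replicate 2, where the neutrophil sum was highest, the log2 fold change was 0.57 for *Ppp1r15a*, 0.35 for *Atf4* (adjusted p = 0.0731) and 0.59 for *Atf5* (adjusted p = 0.139). The *Rpl22*-/- libraries that remained, at 33.0 and 41.9 CPM, still had higher neutrophil sums than every *Rpl22*+/+ library.

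**Figure D4:**
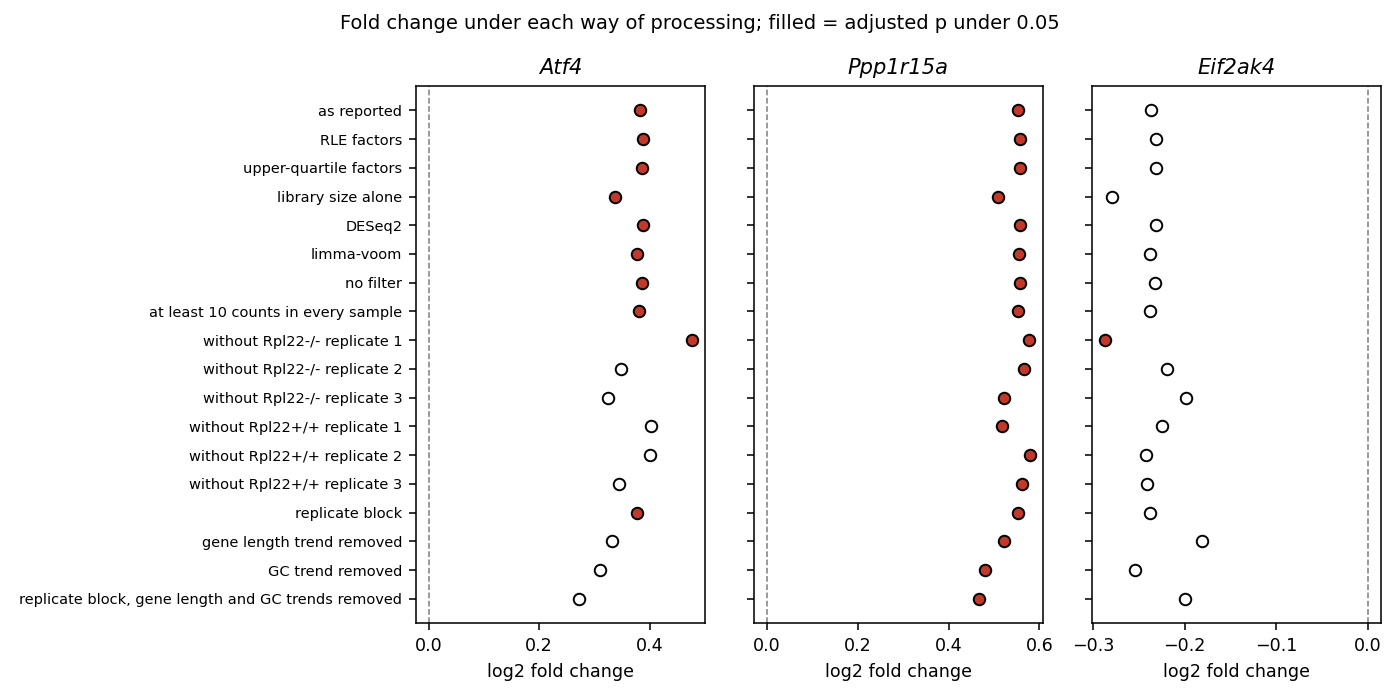
The log2 fold change of *Atf4*, *Ppp1r15a* and *Eif2ak4* on the x axis, *Rpl22*-/- over *Rpl22*+/+, under the reported fit and each of 17 alternatives, named on the y axis, with filled points for an adjusted p under 0.05. *Ppp1r15a* is filled in all 17 alternatives, *Atf4* in 9 and *Eif2ak4* in 1, and no gene of the 3 crosses 0.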

How the data were processed

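RNA from sorted HSCs of 3 *Rpl22*-/- and 3 *Rpl22*+/+ samples was made into polyA libraries, 1 per sample. The deposited values are raw counts of reads per gene, for which the submitters' processing notes name TopHat2 2.1.1, HTSeq and mm10. Annotation and strand setting are not given in the sources used here. HTSeq's totals of reads not on a gene (58.6% to 60.9% of each library) were left out. The chosen genes and the lists were fixed with earlier results of these data known, so no list is independent evidence.

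In edgeR 4.0.16 (R 4.3.3), filterByExpr (minimum count 10) kept 14004 genes, TMM scaled the libraries, and genotypes were compared by the quasi-likelihood test without a block, where adjusted p-values (Benjamini-Hochberg, all 14004 genes) under 0.05 passed. Intervals are 95% intervals from the fit's degrees of freedom. CPM uses TMM-scaled library sizes, and CPM per kilobase divides by the merged exon length. Positions, length and GC content came from GENCODE for GRCm38 (mm10), matched for 30891 of 34573 symbols. Genes named are the 10 chosen, *Rpl22*, *Eif2ak1* to complete its family, and from each pathway list those that passed and the 3 smallest p-values. *Ppp1r15b*, *Tulp2*, copies and markers are named beyond this rule where a result refers to them, as were the read ratios. One gene that this rule names is not reported here.

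Alternatives were DESeq2 1.42.0 or limma-voom (limma 3.58.1) as the test, scaling by RLE, by upper quartiles or by library size alone, no filter, at least 10 counts in every sample, leaving out each library, a replicate block, and removal of trends on gene length and GC content (lowess, span 0.3), also with the block. Scripts were tested on simulated data. Copies were found with BLAST 2.17.0. With 3 libraries a group, precision rests on 3 values.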

Additional observations from a re-analysis of the deposited data

How the results depend on the processing

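Direction was kept in all 17 alternatives by *Atf4*, *Ppp1r15a*, *Ddit3*, *Psat1* and *Eif2ak4*. Of genes that did not pass, *Eif2ak2* turned to −0.0107 with library size alone and −0.0068 without *Rpl22*+/+ replicate 1, *Trib3* to 0.0495, 0.0509 and 0.0768 without *Rpl22*-/- replicates 2 and 3 and *Rpl22*+/+ replicate 3, *Asns* to −0.148 and −0.163 without *Rpl22*-/- replicate 2 and *Rpl22*+/+ replicate 3, and *Eif2ak3* to 0.017 without *Rpl22*-/- replicate 2. With 1 library left out, *Eif2ak2* ranged from −0.0068 to 0.0918, *Trib3* from −0.3004 to 0.0768, *Asns* from −0.163 to 0.268 and *Eif2ak3* from −0.162 to 0.017. The chosen genes called, 2 as reported, were 1 with the length trend removed and 1 with the GC trend removed. They were 1 with the block added and both trends removed, and 1 to 3 with 1 library left out. The cause of the loss of *Atf4* was not tested. The pathway genes called, 16 as reported over all 10 lists, were 31 with no filter, 9 with the GC trend removed and 4 to 34 with 1 library left out. Over all genes, 780 as reported became 1422 with no filter, 506 with the GC trend removed and 127 to 1720 with 1 library left out, the highest without *Rpl22*-/- replicate 1 and the lowest without *Rpl22*-/- replicate 3, and 1056 with DESeq2. With library size alone 43.4% of 850 calls were higher in *Rpl22*-/-, beside 58.8% of those reported, and *Atf4* and *Ppp1r15a* still passed.

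Same-numbered libraries deviated from their group means with correlations of −0.103, 0.0549 and 0.0448, which showed no pairing by replicate number. Deviations from a mean of 3 libraries are tied to each other, so these values could not exclude pairing. With a replicate block 904 genes, 22 pathway genes and 2 of the chosen genes passed, *Ppp1r15a* with an adjusted p of 0.00587 and *Atf4* with 0.0245. Depth limits *Chac1*, which had at most 4 reads.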
